A study of Chlamydomonas reinhardtii with 18 samples.

Results

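The alternative oxidases AOX1 and AOX2 and the type II NADH dehydrogenases NDA1, NDA2 and NDA3 were followed in RNA-seq libraries of the green alga Chlamydomonas reinhardtii. The 5 genes were found by their symbols among 17693 genes in the table of transcript abundances, of which 4408 carried a symbol. The mutant tpt10b lacks a working CreTPT10 gene and was set against its CC-4532 wild type, WT, with CreTPT10 belonging by its name to the triose phosphate translocators. Both were grown in TAP, a medium that supplies acetate, at a low light intensity (30 µmol photons m-2 s-1, approximately) until mid-log phase. Cells taken at that point are called 0 h, and the same cultures were then kept in complete darkness and sampled at 24 h and 48 h. Each of the 6 groups held 3 biological replicates, which gave 18 libraries, and tpt10b was represented by 1 mutant line. Whether the replicates were separately grown cultures is not given in the sources used here, so the p-values measure the spread between these samples.

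Alternative oxidases take electrons from the reduced ubiquinone pool of the mitochondrion and pass them to oxygen, around complexes III and IV and without pumping protons. Type II NADH dehydrogenases are single-polypeptide, non-pumping enzymes that feed electrons from NADH or NADPH into a quinone pool, which complex I also does while pumping protons. With both kinds of enzyme a cell can burn reductant with little ATP gained, and in darkness with acetate the alga lives on respiration. In Chlamydomonas AOX1 is known to respond to the nitrogen source and is induced by nitrate, while AOX2 is the weakly expressed second gene. NDA1 is a mitochondrial enzyme of the inner membrane, and NDA2 is the plastid enzyme that reduces plastoquinone in the dark and feeds chlororespiration and cyclic electron flow. NDA3 belongs to the same family, and its role is less well established.

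The values were TPM, transcript abundances that are corrected for gene length and add to the same total in every library. TPM multiplied by gene length, and divided by a unit for each library taken as 1 read, returned whole reads, 59603478 to 87965038 per library. All 5 genes passed the filter on low values, with 14731 genes tested in all. Reads per library were 9446 to 38763 for AOX1, 848 to 2333 for AOX2, 5026 to 11993 for NDA1, 5065 to 11796 for NDA2 and 1336 to 15033 for NDA3. In bulk libraries such as these, fewer cells with a transcript and less of it per cell cannot be told apart. The locus Cre08.g379350, assigned to CreTPT10 from background knowledge because the files give it no symbol, was lower in tpt10b at 0 h, 24 h and 48 h, by -2.81, -3.81 and -3.14 on the log2 scale. The tpt10b 24 h libraries stood apart, with correlations between replicates of 0.975 to 0.981 and the fewest genes with reads, from 15490. WT 48 h replicate 2 also stood apart from its group, where correlations between replicates ran from 0.963 to 0.991. The median gene was 0.41 (log2) higher in tpt10b than in WT at 0 h, and -0.23 and 0.12 at 24 h and 48 h. After median-of-ratios rescaling of each library, called rescaling from here on, these medians were -0.03, 0.04 and 0.01. In tpt10b the median gene changed by -0.53 from 0 h to 24 h and by -0.06 after rescaling. Because of these shifts a rescaled value is set beside each difference of the 5 genes, and ratios within a library, which no scaling factor can change, are given as well.

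AOX1 was the most abundant of the 5 transcripts in every group, and AOX2 was the least abundant in every group but tpt10b at 24 h, where NDA3 was lower. In WT at 0 h the order of mean TPM was AOX1 at 309.6 ± 77.4 (SD, n = 3), NDA3 at 49.3 ± 6.86, NDA1 at 38.5 ± 4.52, NDA2 at 30.5 ± 2.79 and AOX2 at 10.03 ± 0.724. The 3 libraries of each gene lay apart from those of the next gene in that order, and the same order, with no overlap, was found in tpt10b at 0 h. In darkness neighbours in the order overlapped. NDA3 and NDA1 overlapped in WT at 24 h, NDA3 overlapped both NDA1 and NDA2 in WT at 48 h, where the latter pair lay apart, NDA2 and NDA1 overlapped in tpt10b at 24 h, and NDA1 and NDA3 did so in tpt10b at 48 h.

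**Figure D1:**
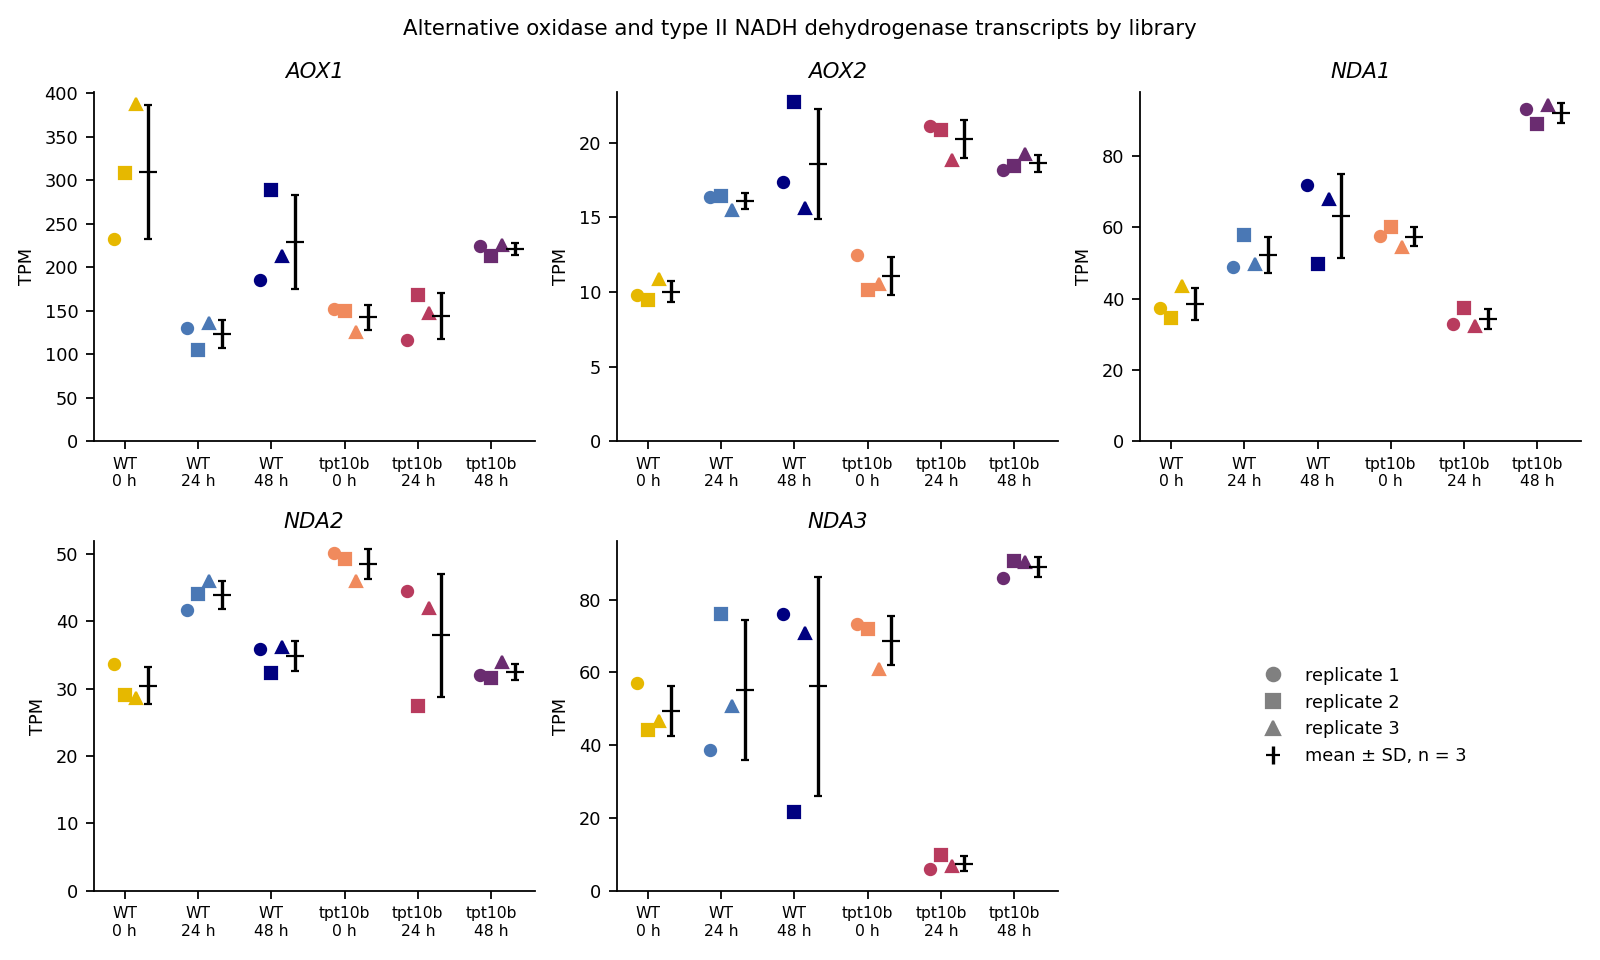
TPM of AOX1, AOX2, NDA1, NDA2 and NDA3 in each of the 18 libraries, in 5 panels with the 6 groups on the horizontal axis. Symbols mark replicates 1 to 3, bars mark the mean and SD (n = 3), and each vertical axis starts at 0. AOX1 is highest in WT at 0 h, and NDA3 lies between 5.86 and 9.70 TPM in tpt10b at 24 h, below every other library.

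The AOX1 transcript (Cre09.g395950) was lower in tpt10b than in WT before the dark transfer, and darkness moved it differently in the genotypes. In WT at 0 h the 3 libraries gave 233, 308 and 388 TPM, the widest spread of any group for this gene. In tpt10b at 0 h they gave 152, 150.0 and 125 TPM. Every tpt10b library lay below every WT library, and the log2 difference was -1.09 ± 0.19 (SE, adjusted p = 1.61e-04), or -1.65 after rescaling. At 24 h of darkness the WT libraries gave 129.7, 104 and 135 TPM and those of tpt10b 116, 168 and 147. The genotypes overlapped there, with a difference of 0.22 ± 0.19 (adjusted p = 0.37; 0.58 and 0.0724 after rescaling). At 48 h WT gave 185, 289 and 212 TPM and tpt10b 225, 213 and 225, again with overlap and a difference of -0.03 (adjusted p = 0.944; -0.19 after rescaling).

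Over time AOX1 fell in WT during the first day of darkness and recovered during the second. The fall from 0 h to 24 h was -1.30 ± 0.19 (adjusted p = 8.62e-06; -1.59 after rescaling), and the rise from 24 h to 48 h was 0.87 ± 0.19 (adjusted p = 0.00127; 1.03 after rescaling). At 48 h the WT level overlapped that at 0 h. The difference of -0.43 passed the threshold narrowly (adjusted p = 0.0486), and the call was lost after rescaling (-0.56, adjusted p = 0.0523), in a fit on the compared groups only (adjusted p = 0.123) and without any of 4 libraries, WT 0 h replicate 2 or 3 or WT 48 h replicate 1 or 3. In tpt10b no fall was seen in the first day, since 24 h against 0 h gave 0.0045 with an adjusted p of 0.984, and a rise of 0.63 after rescaling (adjusted p = 0.0307). Between 0 h and 48 h AOX1 rose in tpt10b by 0.64 ± 0.19 (adjusted p = 0.00531; 0.90 after rescaling), with no overlap between the groups. The rise from 24 h to 48 h, 0.63 (adjusted p = 0.00657), became 0.26 after rescaling and lost its call. The difference between the genotypes in the dark response was itself tested: it was 1.31 ± 0.26 at 24 h (adjusted p = 5.33e-04) and 1.07 ± 0.26 at 48 h (adjusted p = 0.00598). Both passed after rescaling, at 2.23 and 1.46, and without any single library.

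AOX2 (Cre03.g169550) rose in darkness in both genotypes. In WT the libraries gave 9.81, 9.44 and 10.8 TPM at 0 h, 16.3, 16.5 and 15.5 at 24 h, then 17.4, 22.8 and 15.6 at 48 h. In tpt10b they gave 12.5, 10.2 and 10.5 TPM at 0 h, 21.1, 20.9 and 18.8 at 24 h, then 18.2, 18.5 and 19.3 at 48 h. All dark libraries lay above all 0 h libraries of their genotype. The log2 rise to 48 h was 0.81 ± 0.13 in WT (adjusted p = 1.78e-05; 0.69 after rescaling) and 0.71 ± 0.13 in tpt10b (adjusted p = 7.38e-05; 0.94 after rescaling). The rise to 24 h was 0.82 in tpt10b (adjusted p = 1.55e-05; 1.41 after rescaling) and 0.63 in WT (adjusted p = 2.74e-04), where the call was lost after rescaling (0.36, adjusted p = 0.0708). Between 24 h and 48 h AOX2 gave 0.18 in WT (0.33 after rescaling) and -0.11 in tpt10b, neither past the threshold, although the tpt10b value was -0.47 after rescaling and passed (adjusted p = 0.0234).

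The genotypes did not differ detectably in AOX2 at 0 h, with 0.13 ± 0.13 (adjusted p = 0.396), or at 48 h, with 0.02 ± 0.13 (adjusted p = 0.937). After rescaling both values took the opposite sign, -0.38 at 0 h (adjusted p = 0.095) and -0.13 at 48 h (adjusted p = 0.66). At 24 h all 3 tpt10b libraries lay above the WT libraries, and the difference was 0.31 ± 0.13 (adjusted p = 0.0562). After rescaling it was 0.66 and passed (adjusted p = 0.00628). The difference between the genotypes in the response to 24 h of darkness was 0.19 ± 0.18 (adjusted p = 0.365), but 1.05 after rescaling (adjusted p = 0.0027). At 48 h it was -0.11 (adjusted p = 0.67; 0.25 and 0.482 after rescaling).

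Set against each other within a library, the oxidases held less AOX1 for each AOX2 at 24 h than at 0 h in both genotypes, and at 48 h than at 0 h in WT. In WT at 0 h there were 23.7, 32.7 and 35.8 AOX1 transcripts for each AOX2 transcript. In the other 5 groups the ratio ran from 5.51 to 14.8, so that WT at 0 h stood above all other libraries. The mean at 0 h was 30.7 ± 6.25 in WT and 12.9 ± 1.59 (SD, n = 3) in tpt10b. Its mean at 24 h was 7.67 ± 1.22 in WT and 7.12 ± 1.40 in tpt10b, and that at 48 h was 12.3 ± 1.5 and 11.9 ± 0.449, with overlap between the genotypes at both dark times. In tpt10b the libraries at 48 h, 11.5 to 12.4, overlapped those at 0 h, 11.9 to 14.8. AOX1 still made up 84.6% to 97.3% of the summed TPM of the pair in every library.

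The mitochondrial dehydrogenase gene NDA1 (Cre16.g691552) ended darkness above its 0 h level in both genotypes. As deposited, it passed through a low point in tpt10b at 24 h, but rescaling took that change from 0 h to -0.11 with no call. In WT the libraries gave 37.3, 34.6 and 43.4 TPM at 0 h, 48.8, 58.0 and 49.6 at 24 h, then 72.0, 49.7 and 67.9 at 48 h. In tpt10b they gave 57.7, 60.0 and 54.5 TPM at 0 h, 32.9, 37.4 and 32.3 at 24 h, then 93.1, 89.1 and 94.3 at 48 h. In these deposited values the 3 tpt10b groups did not overlap each other, and the 24 h group was the lowest. From 0 h to 48 h NDA1 rose by 0.69 ± 0.13 in WT (adjusted p = 1.41e-04; 0.56 after rescaling) and by 0.67 ± 0.13 in tpt10b (adjusted p = 1.64e-04; 0.93 after rescaling). From 24 h to 48 h the rise in tpt10b was 1.41 ± 0.13 (adjusted p = 1.12e-07; 1.05 after rescaling). In WT the same step gave 0.26 (adjusted p = 0.121), and it passed after rescaling (0.41, adjusted p = 0.00653) and without WT 48 h replicate 2 (0.42, adjusted p = 0.00765).

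The early NDA1 changes rested on the scaling. The first day of darkness gave a rise of 0.43 in WT (adjusted p = 0.00754) and a fall of -0.73 in tpt10b (adjusted p = 7.2e-05). After rescaling these were 0.15 and -0.11, and neither passed. In the same way tpt10b was 0.57 ± 0.13 higher than WT at 0 h (adjusted p = 0.00149) and -0.59 ± 0.13 at 24 h (adjusted p = 0.00206), and after rescaling the values were 0.02 and -0.24, with neither call kept. The genotype difference in the 24 h response, -1.16 ± 0.18 (adjusted p = 9.89e-05), was -0.26 after rescaling (adjusted p = 0.191), and that in the 48 h response was -0.02 (adjusted p = 0.954; 0.37 and 0.0895 after rescaling). At 48 h tpt10b was higher by 0.55 ± 0.13 (adjusted p = 0.0201; 0.40 and 0.0466 after rescaling), and all its libraries lay above the WT libraries. That call was lost without WT 48 h replicate 2 (0.39, adjusted p = 0.0811), without any of the 3 tpt10b 48 h libraries (adjusted p from 0.0598 to 0.0877) and in a fit on the compared groups only (adjusted p = 0.125).

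NDA2 (Cre19.g750547), the gene of the plastid enzyme, stayed between 27.4 and 50.2 TPM in all libraries, and its level in tpt10b fell over 48 h of darkness on the deposited scale. In WT the libraries gave 33.7, 29.1 and 28.6 TPM at 0 h, 41.7, 44.0 and 46.0 at 24 h, then 36.0, 32.3 and 36.2 at 48 h. In tpt10b they gave 50.2, 49.3 and 46.1 TPM at 0 h, 44.4, 27.4 and 41.9 at 24 h, then 32.0, 31.7 and 33.9 at 48 h. WT was highest at 24 h and tpt10b at 0 h, and replicate 2 of tpt10b at 24 h lay below all other libraries. In WT the rise to 24 h was 0.52 ± 0.14 (adjusted p = 0.00356), which rescaling took to 0.23 with no call, and at 48 h the level no longer differed detectably from 0 h (0.19, adjusted p = 0.236; 0.06 after rescaling). From 24 h to 48 h the WT libraries did not overlap and the value was -0.33 (adjusted p = 0.0704; -0.17 after rescaling).

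In tpt10b NDA2 fell from 0 h to 48 h by -0.56 ± 0.14 (adjusted p = 0.00158), and after rescaling the value was -0.30 (adjusted p = 0.0594). The fall to 24 h, -0.38 (adjusted p = 0.0219), turned to 0.24 after rescaling (adjusted p = 0.125), and its call was also lost without tpt10b 0 h replicate 1 or 2, without tpt10b 24 h replicate 2 (-0.16, adjusted p = 0.159) and in a fit on the compared groups only (adjusted p = 0.0937). From 24 h to 48 h NDA2 gave -0.19 (adjusted p = 0.25), and this passed after rescaling (-0.55, adjusted p = 0.00244) and without tpt10b 24 h replicate 2 (-0.40, adjusted p = 0.00289). Between genotypes tpt10b exceeded WT by 0.66 ± 0.14 at 0 h (adjusted p = 8.84e-04; 0.11 and no call after rescaling), and the differences at 24 h and 48 h were -0.24 (adjusted p = 0.188) and -0.09 (adjusted p = 0.698). After rescaling these were 0.12 and -0.25, neither past the threshold. The dark responses of the genotypes differed by -0.89 ± 0.20 at 24 h (adjusted p = 0.00106) and -0.75 ± 0.20 at 48 h (adjusted p = 0.00849). Neither held after rescaling, where the values were 0.01 and -0.36.

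NDA3 (Cre05.g232200) showed the widest movement, a collapse in tpt10b after 24 h of darkness and a full return by 48 h. The tpt10b libraries gave 73.2, 71.9 and 61.0 TPM at 0 h. They gave 5.86, 9.70 and 6.66 TPM at 24 h, then 85.8, 90.7 and 90.4 at 48 h. The 24 h libraries lay below all 15 others of the study, and the 48 h libraries lay above all others. The fall was -3.07 ± 0.34 (adjusted p = 3.68e-07; -2.48 after rescaling), and the rise that followed was 3.45 ± 0.34 (adjusted p = 2.12e-07; 3.11 after rescaling), which is 10.9-fold on the TPM + 1 scale. These calls held without any single library, with the fall between -3.26 and -2.94 and the rise between 3.31 and 3.63. The tpt10b 24 h libraries also had the fewest genes with reads, from 15490 to 16231 against 16316 to 16901 elsewhere, and the part of that in the NDA3 values was not tested. The difference between 48 h and 0 h in tpt10b was 0.37 ± 0.34 (adjusted p = 0.331; 0.63 and 0.0549 after rescaling). The groups did not overlap, and a fit on the compared groups only passed the threshold (adjusted p = 8.42e-04).

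In WT the NDA3 libraries were scattered. They gave 57.1, 44.3 and 46.5 TPM at 0 h, 38.7, 76.2 and 50.7 at 24 h, then 76.1, 21.5 and 70.8 at 48 h. The low value at 48 h belonged to replicate 2, the library that stood apart from its group. No WT comparison over time passed: 24 h against 0 h gave 0.11 ± 0.34 (adjusted p = 0.781), and 48 h against 24 h gave -0.11 (adjusted p = 0.817). Both changed sign after rescaling, to -0.17 and 0.04, without passing. At 48 h against 0 h the value was -0.0012 (adjusted p = 0.998; -0.14 after rescaling), and without WT 48 h replicate 2 it was 0.57 and passed (adjusted p = 0.0258).

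Between the genotypes NDA3 was -2.71 ± 0.34 in tpt10b at 24 h (adjusted p = 4.1e-05; -2.38 after rescaling), 0.153-fold on the TPM + 1 scale. The response to 24 h of darkness differed between genotypes by -3.19 ± 0.48 (adjusted p = 7.17e-05; -2.30 after rescaling), and this held without any single library, between -3.41 and -2.93. At 48 h the responses gave a difference of 0.37 ± 0.48 (adjusted p = 0.571; 0.77 after rescaling). At 0 h all tpt10b libraries lay above all WT libraries, but the difference of 0.47 ± 0.34 did not pass (adjusted p = 0.233) and was -0.08 after rescaling. A fit on the compared groups only, which leaves out all dark libraries, did pass at 0 h (adjusted p = 0.00524). At 48 h the difference was 0.85 ± 0.34 (adjusted p = 0.126; 0.69 after rescaling). It was 1.16 and passed without WT 48 h replicate 1 (adjusted p = 0.03), and it was 0.27 without replicate 2 (adjusted p = 0.587).

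The shares of the 3 dehydrogenases in their summed TPM within a library do not change with scaling. NDA3 made up 39.2% to 44.6% of their summed TPM in WT at 0 h and 37.8% to 40.4% in tpt10b at 0 h. In tpt10b at 24 h its share was 7.05%, 13.0% and 8.24%, below every other library, while NDA2 made up 53.4%, 36.8% and 51.8%. In tpt10b at 48 h NDA2 had its lowest share, 14.97% to 15.5%, and NDA1 and NDA3 had 42.1% to 44.1% and 40.7% to 42.9%. In WT at 48 h the NDA3 share was 41.4% and 40.5% in replicates 1 and 3 and 20.8% in replicate 2. The sum itself does change with scaling. The summed TPM of the 3 genes in WT was 118 ± 10.1 at 0 h, 151 ± 24.8 at 24 h and 154 ± 44.1 at 48 h. In tpt10b it was 175 ± 11.3, 79.5 ± 4.50 and 214 ± 4.23 at these times, and the genotypes did not overlap at any time. After rescaling the genotypes overlapped at 0 h, at 128 to 140.2 in WT and 129.0 to 139 in tpt10b, and lay apart at 24 h and 48 h.

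**Figure D2:**
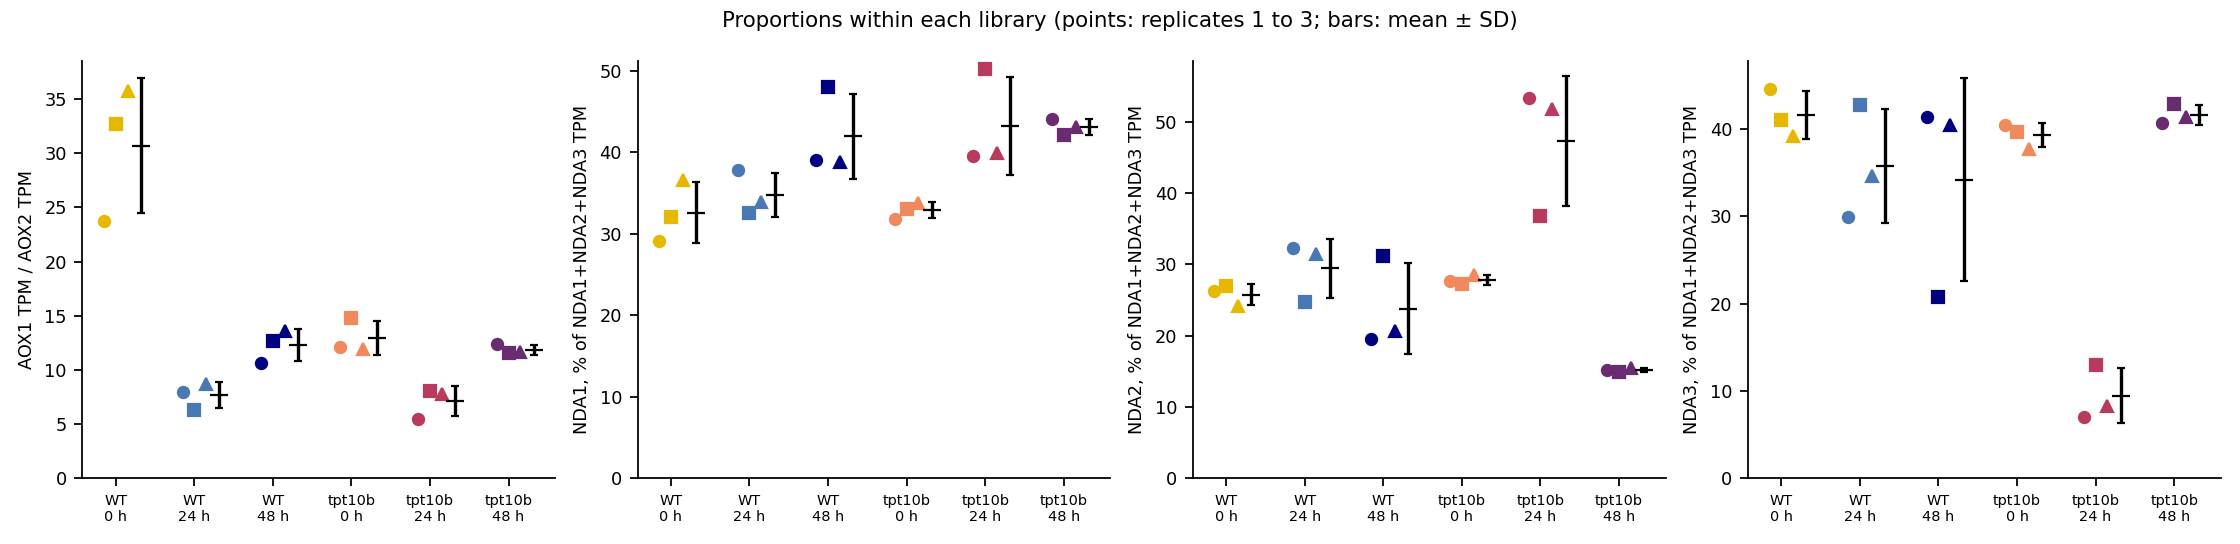
Proportions within each library, in 4 panels: AOX1 TPM divided by AOX2 TPM, and the percent of the summed NDA1, NDA2 and NDA3 TPM held by each of these genes. Points are replicates 1 to 3 of the 6 groups, and bars are mean and SD (n = 3). The AOX1 to AOX2 ratio of WT at 0 h (23.7 to 35.8) lies above all other libraries, and the NDA3 share of tpt10b at 24 h (7.05% to 13.0%) lies below them.

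Across comparisons the number of the 5 genes called has to be read against the share of all tested genes called at the same threshold, an adjusted p under 0.05. Between genotypes, 3 of the 5 were called at 0 h (background 59.9%), 2 at 24 h (40.6%) and 1 at 48 h (6.59%). After rescaling they were 1 at 0 h (34.3%), 2 at 24 h (41.0%) and 1 at 48 h (5.51%). In WT, 4 were called at 24 h against 0 h (66.4%), 3 at 48 h against 0 h (70.2%) and 1 at 48 h against 24 h (41.5%), and after rescaling 1 (66.0%), 2 (72.2%) and 2 (42.2%). In tpt10b, 4 were called at 24 h against 0 h (75.2%), 4 at 48 h against 0 h (74.2%) and 3 at 48 h against 24 h (66.7%), and after rescaling 3 (72.3%), 3 (73.9%) and 4 (67.9%). The genotype difference in the dark response was called for 4 at 24 h (64.2%) and 2 at 48 h (35.4%), and after rescaling for 3 (44.6%) and 1 (25.7%). Counts over 5 genes are too few to stand apart from such shares. At 0 h AOX1 was lower in tpt10b, which held for 9.19% of all genes, while 50.8% were higher on the deposited scale. After rescaling 21.2% of all genes were lower and 13.1% higher, and AOX1 was again lower.

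**Figure D3:**
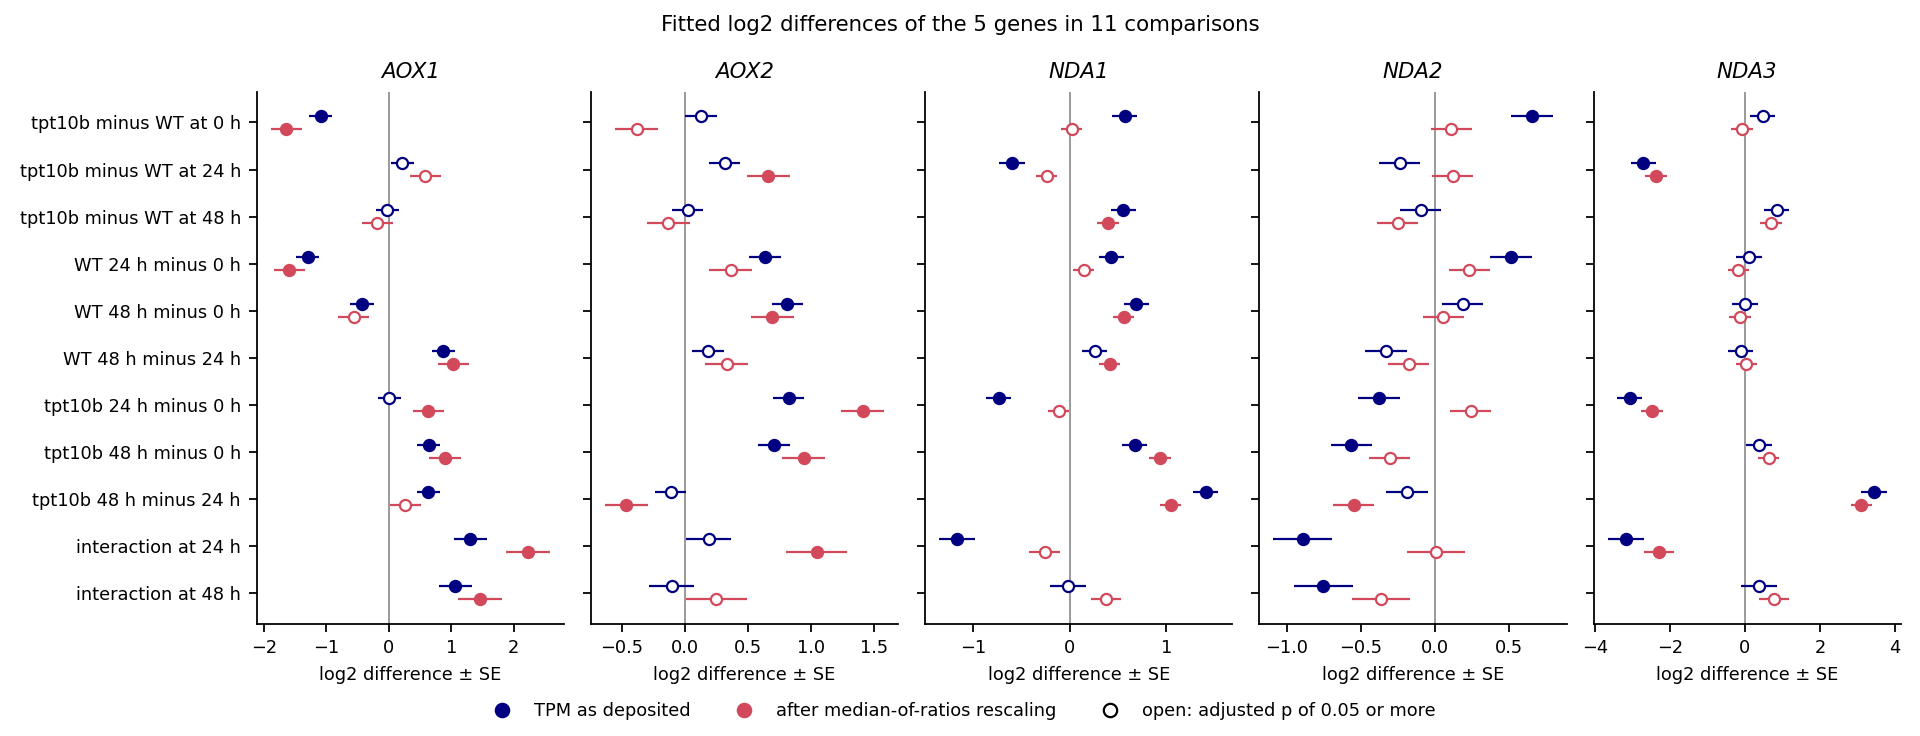
Fitted log2 differences with SE for AOX1, AOX2, NDA1, NDA2 and NDA3 in 11 comparisons, from TPM as deposited (dark blue) and after median-of-ratios rescaling (red). Filled points passed an adjusted p of 0.05 and open points did not, and the horizontal scale differs between panels. The NDA3 changes around tpt10b at 24 h passed under both scalings, with the fall at -3.07 and -2.48, while the NDA1 and NDA2 differences at 0 h move to 0.02 and 0.11.

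The other type II dehydrogenase genes with a symbol were NDA5, NDA6 and NDA7. On the deposited scale NDA6 in tpt10b, like NDA1 and NDA3, had its lowest mean at 24 h and its highest at 48 h. Of these lows only that of NDA3 was called against 0 h after rescaling (-2.48). The genes NDA5, NDA6 and NDA7 then had a median of 0.08, with 0 called lower. In tpt10b NDA6 averaged 13.1 ± 0.800 TPM at 0 h, 8.93 ± 1.02 at 24 h and 45.3 ± 2.76 at 48 h, a rise of 2.22 ± 0.22 over the second day (adjusted p = 1.73e-07; 1.88 after rescaling). NDA6 fell there by -0.51 over the first day (adjusted p = 0.0414), a call lost after rescaling and without any of 5 libraries. In WT it averaged 12.5 ± 0.438, 23.1 ± 4.69 and 26.7 ± 10.3 TPM, with replicate 2 lowest of the 48 h libraries, and at 24 h it was lower in tpt10b by -1.27 ± 0.22 (adjusted p = 3.3e-04; -0.93 after rescaling). The 48 h level of NDA6 exceeded that of WT in tpt10b by 0.82 (adjusted p = 0.0325), a call lost without WT 48 h replicate 2 or any tpt10b 48 h library. NDA5 rose in darkness in both genotypes, at 48 h by 0.81 in WT (adjusted p = 7.71e-06) and by 0.53 in tpt10b (adjusted p = 5.84e-04). NDA7 was near 1 to 6 TPM and rose at 48 h in tpt10b by 1.23 (adjusted p = 1.81e-04), while in WT the value was 0.39 (adjusted p = 0.158). Over the first day in tpt10b NDA7 gave -0.30 (adjusted p = 0.27).

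The plastid terminal oxidases PTOX1 and PTOX2 oxidise plastoquinol with oxygen and so stand downstream of NDA2 in chlororespiration. At 0 h PTOX1 was lower in tpt10b, at 91.8 ± 7.11 TPM against 172 ± 13.5, a difference of -0.90 ± 0.10 (adjusted p = 6.71e-06; -1.46 after rescaling). PTOX2 was higher, at 66.5 ± 4.43 TPM against 31.4 ± 3.65, a difference of 1.07 ± 0.13 (adjusted p = 1.41e-05; 0.52 after rescaling). Over 48 h of darkness PTOX1 rose in tpt10b by 1.58 ± 0.10 (adjusted p = 3.45e-10; 1.84 after rescaling). In WT PTOX1 rose by 0.34 (adjusted p = 0.00756), and rescaling took that to 0.20 with no call. PTOX2 rose over 48 h in WT by 0.72 (adjusted p = 1.11e-04). In tpt10b PTOX2 gave 0.11 (adjusted p = 0.454), but it was called higher after rescaling. At 24 h PTOX2 was lower than at 0 h in tpt10b by -0.68 (adjusted p = 1.77e-04), a call lost after rescaling. The uncoupling protein gene UCP1, whose product belongs to a family of mitochondrial carriers that can dissipate the proton gradient, fell over 48 h. UCP1 fell from 85.2 ± 7.93 to 35.0 ± 3.37 TPM in WT and from 99.2 ± 5.03 to 24.8 ± 2.16 in tpt10b, log2 changes of -1.26 and -1.96 (adjusted p = 7.88e-07 and 2.74e-09). UCP3 was a low transcript that rose at 24 h in both genotypes, by 1.84 in WT (adjusted p = 8.01e-08) and 0.96 in tpt10b (adjusted p = 1.09e-04). The symbol pattern also missed UCP2A and UCP2C, which were added after the data were seen. UCP2C fell over 48 h from 358 ± 43.7 to 57.9 ± 35.1 TPM in WT and from 381 ± 28.2 to 95.1 ± 3.43 in tpt10b, with 28.6 ± 2.45 at 24 h (adjusted p = 1.82e-06 and 9.83e-05 for 48 h against 0 h). UCP2A fell over 48 h in tpt10b by -0.54 (adjusted p = 0.00247), and in WT the value was 0.24 (adjusted p = 0.145).

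Most genes of the phosphorylating chain, complexes I to IV and ATP synthase, fell over 48 h of darkness, while the 5 genes were mixed. AOX2 and NDA1 rose in both genotypes. AOX1 rose in tpt10b (0.64) but gave -0.43 in WT, a call lost after rescaling. NDA2 fell in tpt10b (-0.56, no call after rescaling) and gave 0.19 in WT without passing. NDA3 passed in neither genotype (-0.0012 in WT, 0.37 in tpt10b). In WT, 34 of 41 nuclear complex I genes, a list that includes assembly factors, were lower and 6 higher, with a median of -0.92 against 0.09 for all genes tested, of which 32.4% were lower and 37.7% higher. All 4 genes of complex II (median -1.52), 8 of 9 of complex III (-1.13), all 6 listed nuclear genes of complex IV (-1.20) and 14 of 22 of ATP synthase (-0.50) were lower. In tpt10b the numbers were 33, 4, 8, 6 and 18, with medians of -1.08, -1.57, -1.15, -1.14 and -0.90 against -0.20 for all genes, of which 44.1% were lower and 30.1% higher. The symbol pattern of the complex IV list missed COX13 and COX90, and with them added after the data were seen 8 of 8 were lower in each genotype (medians -1.27 and -1.26). The numbers lower in these 5 lists moved by less than 1.5 times when any single library was left out. After rescaling they were 34, 4, 8, 6 and 14 in WT, where 37.2% of all genes were lower and 35.0% higher. In tpt10b they were 32, 4, 8, 6 and 14, where 36.9% of all genes were lower and 37.0% higher. Among the genes of smallest adjusted p were NUOA3 of complex I, at -2.19 ± 0.11 in WT and -2.15 ± 0.11 in tpt10b, and COX4 of complex IV, at -1.29 ± 0.09 and -1.69 ± 0.09. CYC1, the cytochrome c1 of complex III, gave -1.94 ± 0.12 and -1.56 ± 0.12, and SDH4 of complex II gave -1.88 ± 0.11 and -1.75 ± 0.11. Complex IV assembly factors were mixed, with 2 of 6 higher and 2 lower in WT and 1 higher and 4 lower in tpt10b. The 2 higher in WT became 1 when replicate 2 of 0 h, or replicate 1 or 3 of 48 h, was left out. They became 3 without replicate 2 of 48 h, and the 2 lower became 3 without replicate 3 of 0 h. The mitochondrial transcript cob of complex III rose by 1.34 ± 0.23 in WT (adjusted p = 4.56e-05) and by 1.43 ± 0.23 in tpt10b (adjusted p = 2.01e-05). Of the 5 mitochondrial complex I transcripts 1 was higher in WT, and 1 was higher and 1 lower in tpt10b. In each genotype the higher call was lost when replicate 1 or 3 of 0 h, or replicate 1 of 48 h, was left out, and in WT 2 were higher without replicate 2 of 48 h. The complex IV transcript cox1 did not pass in WT (0.42, adjusted p = 0.292) or in tpt10b (0.21, adjusted p = 0.595). Of 4 plastid genes listed for cyclic electron flow, 3 were lower in WT and 2 lower and 1 higher in tpt10b, with PGRL1 at -1.66 ± 0.13 and -2.12 ± 0.13.

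**Figure D4:**
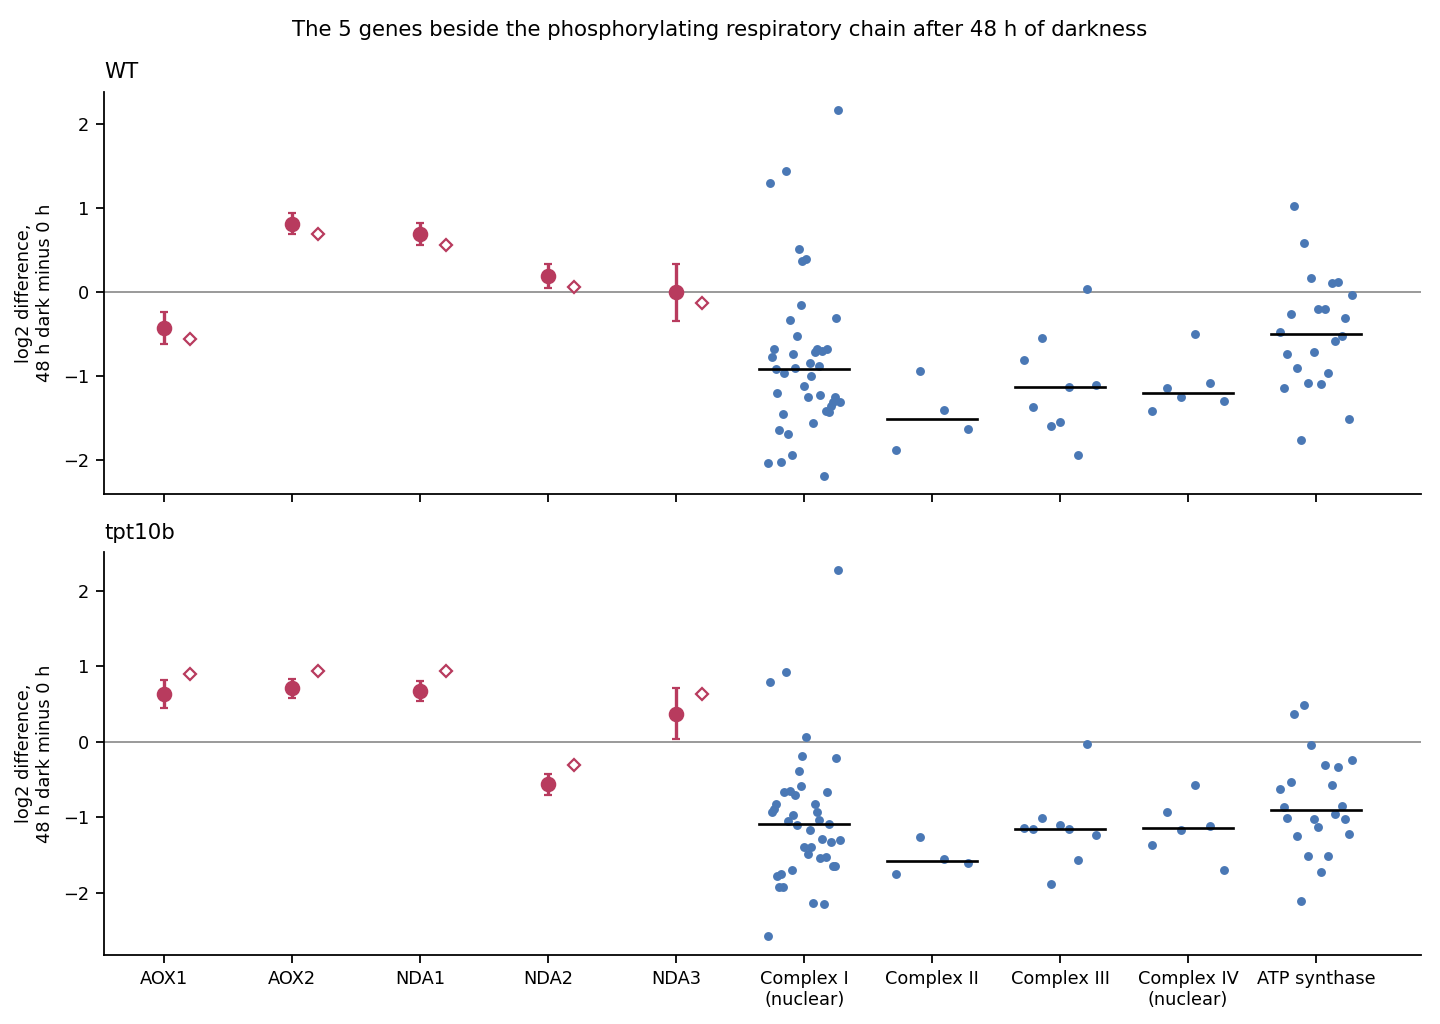
Log2 difference between 48 h of darkness and 0 h in WT (upper panel) and tpt10b (lower panel). Filled circles with SE are AOX1, AOX2, NDA1, NDA2 and NDA3, open diamonds are the same genes after rescaling, small points are single genes of nuclear complex I, complex II, complex III, nuclear complex IV and ATP synthase, and horizontal bars are list medians. AOX2 and NDA1 lie above 0 in both panels, and the list medians lie between -1.57 and -0.50. AOX1 lies below 0 in WT and above 0 in tpt10b, and NDA2 the reverse.

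Within each library, the 2 oxidases were summed against complex IV and the 3 dehydrogenases against complex I. Both ratios of transcripts were higher at 48 h than at 0 h in both genotypes. The summed TPM of AOX1 and AOX2 was 57.4% ± 15.5 (SD, n = 3) of the mean TPM of the 6 listed nuclear complex IV genes in WT at 0 h and 21.5% ± 1.60 in tpt10b, with no overlap. At 24 h it was 32.4% ± 3.84 and 41.0% ± 6.29, and at 48 h 97.9% ± 32.3 and 76.0% ± 2.63. The 3 WT libraries at 48 h gave 75.2%, 134.8% and 83.6%. In WT the oxidase sum itself averaged 320 ± 77.9 TPM at 0 h and 248 ± 57.3 at 48 h, with overlap. The complex IV mean there went from 560 to 258 TPM. In tpt10b the sum went from 153 to 240 TPM and the complex IV mean from 713 to 315 TPM. With COX13 and COX90 among the complex IV genes the WT means were 52.2%, 32.1% and 92.0% at the 3 times and those of tpt10b 20.02%, 37.1% and 78.4%. In tpt10b the 3 times did not overlap and the order followed time in darkness, whereas in WT the 24 h libraries were the lowest. The summed TPM of NDA1, NDA2 and NDA3 was 87.1% ± 2.56 of the mean nuclear complex I gene in WT at 0 h, 149% ± 24.7 at 24 h and 209.9% ± 57.5 at 48 h. In tpt10b it was 112% ± 6.57, 77.7% ± 1.53 and 293% ± 1.53, so that the mutant was lowest at 24 h and highest at 48 h of all 6 groups. The dehydrogenase sum includes NDA2, the gene of a plastid enzyme, which held 14.97% to 53.4% of it across libraries. It is thus not a sum over mitochondrial enzymes only. All values in this paragraph that set oxidases or dehydrogenases against a complex are ratios of transcript levels. They hold no measure of enzyme amount or electron flow.

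At 24 h, where NDA3 was lower in tpt10b, chain genes differed from WT in both directions. Of 41 nuclear complex I genes, 6 were higher and 13 lower in tpt10b than in WT, with a median of -0.04 against -0.23 for all genes. Of all genes 5.76% were higher and 34.8% lower, so the share lower in complex I was near the background. After rescaling 21 were higher and 6 lower, with a median of 0.32, against 20.6% higher and 20.5% lower of all genes. For ATP synthase 9 of 22 were higher and 3 lower, and after rescaling 13 and 1, against the same shares of all genes. Complex II (4 genes), complex III (9) and nuclear complex IV (6) had 1, 3 and 0 higher and 0, 3 and 2 lower. After rescaling these lists had 2, 4 and 3 higher and 0, 2 and 0 lower. Without WT 24 h replicate 2 the number lower in complex I was 8 and that higher in ATP synthase was 3. The numbers higher in complexes II and III were then 0 and 1, and those lower in complexes III and IV 2 and 1.

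The 3 genes whose pattern was most like that of each of the 5 were found by Pearson's r of log2(TPM + 1) over the 18 libraries, among the 3107 symbol-bearing genes that averaged 5 TPM or more. These values describe the data, since libraries share genotype, time and composition. NDA3 had the closest companions: FAP303 (r = 0.989), a flagellar associated protein gene by its symbol, CYCAB1 (0.988), a cyclin gene by its symbol, and CCM1 (0.986), the regulator of the carbon-concentrating mechanism. All 3 shared its low at 24 h in tpt10b, where CYCAB1 averaged 0.424 TPM and CCM1 0.918 TPM against 17.9 and 12.5 TPM at 48 h. NDA1 was followed most closely by CHC1 (0.981), AP1G1 (0.969) and SNRK2P (0.966), of which CHC1 and AP1G1 are, by their symbols, a clathrin heavy chain and an adaptor subunit of vesicle coats. AOX2 was followed by the ribosomal protein gene RPS27E1 (0.969), SFT1 (0.950) and CPLD46 (0.944). For AOX1 the values were lower, at 0.916 for COAC1, 0.910 for FLS2 and 0.851 for RIB30, and for NDA2 they were 0.907 for PREP1, 0.901 for POB22 and 0.900 for PDC1. With rescaled libraries the same genes gave 0.960, 0.929 and 0.848 for AOX1 and 0.833, 0.806 and 0.867 for NDA2. Those of NDA1 gave 0.961, 0.947 and 0.923, so the top value of AOX1 was then level with that of NDA1. Among the 5 themselves the highest r was 0.76, between NDA1 and NDA3 (0.57 after rescaling). The lowest was -0.80 between AOX1 and NDA2, which was -0.32 after rescaling. After rescaling the lowest were -0.72 between NDA2 and NDA3 (0.04 as deposited) and -0.63 between NDA1 and NDA2 (-0.02 as deposited). AOX1 and AOX2 gave -0.19 (0.28 after rescaling).

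In the RefSeq annotation of assembly Chlamydomonas_reinhardtii_v5.5, used for gene order only, AOX1 lies next to NRT2C, a gene of the nitrate transporter family by its symbol. NRT2C stayed between 0 and 1.01 TPM in all 18 libraries and failed the filter, while AOX1 was never under 104 TPM. Of 14 nitrate assimilation genes matched by symbol, 8 were tested, and at 0 h, where AOX1 was lower in tpt10b, 5 were higher and 0 lower, against 50.8% and 9.19% of all genes. After rescaling 3 were higher and 1 lower, against 13.1% and 21.2%. Over 48 h of darkness 4 of the 8 were higher and 1 lower in WT, against 37.7% and 32.4% of all genes. In tpt10b 3 were higher and 3 lower, against 30.1% and 44.1%. Rescaling gave 3 and 2 in WT (35.0% and 37.2%) and 5 and 3 in tpt10b (37.0% and 36.9%). The 48 h interaction was higher for 1 and lower for 5 (9.02% and 26.4%), and 1 and 2 after rescaling (16.9% and 8.75%). Among the 8, NII1, the nitrite reductase gene, rose over 48 h by 1.95 ± 0.26 in WT (adjusted p = 2.65e-06) and 3.00 ± 0.26 in tpt10b (adjusted p = 1.08e-08). It reached only 6.83 ± 3.25 and 10.4 ± 0.948 TPM. AOX2 lies next to FLS2, which was among the 3 genes most like AOX1 in pattern. NDA1 lies next to FAP43 and NDA3 next to GDH2, a glutamate dehydrogenase gene by its symbol.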

How the data were processed

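Total RNA was treated with DNase and primed with random hexamers, per the labels' protocols. HISAT2 2.0.5 was among the tools used, as was StringTie 1.3.3b, per the submitters' processing notes, which give no roles. The strandedness and counting tool are not given in the sources used here. Without strand, reads of overlapping genes cannot be told apart. The deposited table holds TPM computed by the authors for 17693 genes. TPM was multiplied by the given length, which is a multiple of 3 for 94.4% of genes and so near coding length. The product was divided by a unit for each library, its smallest value above 0, taken as 1 read and then refined. Whole reads within 0.01 resulted for 100% of values above 0, 59603478 to 87965038 per library.

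Groups and replicate numbers came from the titles. The descriptions number the tpt10b 48 h replicates differently from the titles, and whether that marks a batch was not tested, since it would coincide with the group. Genes with at least 1 TPM in at least 3 of 18 libraries were kept, 14731 genes. The linear model of log2(TPM + 1) was made in R 4.3.3 by limma 3.58.1, and had 1 mean for each of 6 groups and a variance trend, and 11 contrasts were tested two-sided with Benjamini-Hochberg adjustment over all genes kept (threshold 0.05). Folds are on the TPM + 1 scale and understate changes of low genes. The test was checked on simulated data, in which a small share of genes changed, evenly up and down. That check did not cover shifts of the median gene such as those seen here.

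The 5 genes were named in full, with all matched genes of the short lists, up to 3 genes of smallest adjusted p of longer lists and the 3 genes most like each of the 5. The 5 genes and all lists were chosen with earlier results of these data known. Alternatives were pseudocounts of 0.1 and 5, no filter, median-of-ratios rescaling, a filter at a mean of 5 TPM, a replicate block, the compared groups only, limma-voom on recovered reads, and each library left out. Leaving libraries out of the lists, and adding COX13, COX90, UCP2A and UCP2C, were chosen after seeing the data. No list held a cytochrome c symbol. Python 3.11.15, pandas 2.3.3, numpy 2.4.6 and matplotlib 3.10.9 were used. Sequences of the 5 genes were not used here.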

Additional observations from a re-analysis of the deposited data

Results flagged for a closer look

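Several differences between the genotypes in the response to darkness passed the test of the difference itself, the interaction term of limma with Benjamini-Hochberg adjustment. At 24 h against 0 h, the tpt10b response minus the WT response was 1.31 for AOX1 (adjusted p = 5.33e-04), -1.16 for NDA1 (adjusted p = 9.89e-05), -0.89 for NDA2 (adjusted p = 0.00106) and -3.19 for NDA3 (adjusted p = 7.17e-05), on the log2 scale. After rescaling they were 2.23, -0.26, 0.01 and -2.30, and AOX1 and NDA3 passed. At 48 h against 0 h it was 1.07 for AOX1 (adjusted p = 0.00598) and -0.75 for NDA2 (adjusted p = 0.00849), with 1.46 and -0.36 after rescaling, where AOX1 passed. The same test called 64.2% of all genes at 24 h and 35.4% at 48 h. The 24 h values rest on the tpt10b 24 h libraries, which stood apart from the others.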

How the results depend on the processing

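Of 55 differences (5 genes in 11 comparisons), 55 kept their direction and side of the threshold with a filter at a mean of 5 TPM and with a replicate block. With a pseudocount of 0.1 or 5 and with no filter 54 did, with the compared groups only 50, and after rescaling and with limma-voom on recovered reads 27 each. Of 390 values with a library left out, 356 did. NDA2 reversed from 0 h to 24 h in tpt10b, at 0.24 after rescaling and 0.25 with limma-voom, and in the 24 h interaction, at 0.0102 and 0.0107. Differences that did not pass as deposited and took the opposite sign without passing were, after rescaling and with limma-voom in turn, AOX2 between genotypes at 0 h (-0.38, -0.41) and 48 h (-0.13, -0.13), NDA3 between genotypes at 0 h (-0.0753, -0.0764), NDA2 between genotypes at 24 h (0.12, 0.13), NDA3 in WT at 24 h against 0 h (-0.17, -0.18) and at 48 h against 24 h (0.0379, 0.0385), and the 48 h interactions of AOX2 (0.25, 0.28) and NDA1 (0.37, 0.38). NDA3 in WT at 48 h against 0 h was 0.0162 with a pseudocount of 5. With a library left out the sign changed for AOX1 in tpt10b at 24 h against 0 h (-0.12 to 0.15), AOX1 and AOX2 between genotypes at 48 h (-0.17 to 0.15 and -0.0901 to 0.167), NDA3 in WT at 24 h and 48 h against 0 h and between them (-0.14 to 0.34, -0.31 to 0.57 and -0.43 to 0.46), and the 48 h interactions of AOX2 (-0.22 to 0.0412), NDA1 (-0.18 to 0.0846) and NDA3 (-0.20 to 0.69).

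The number of the 5 genes called became 1 (from 3) between genotypes at 0 h, 1 (from 4) in WT at 24 h, 2 (from 1) in WT at 48 h against 24 h and 1 (from 2) in the 48 h interaction, each after rescaling and with limma-voom. Between genotypes at 48 h it was 0 with the compared groups only and 0 to 2 with a library left out, and in WT at 48 h against 24 h it was 1 to 2 with a library left out.

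Over all genes, the filter at a mean of 5 TPM, which tests fewer genes, called 5297 and 3448 between genotypes at 0 h and 24 h, 5996, 6457 and 4044 in WT at 24 h, at 48 h and between them, 6670, 6676 and 5991 in tpt10b, and 5471 and 3333 in the interactions at 24 h and 48 h. Between genotypes at 0 h rescaling called 5049 and limma-voom 5129, against 8831 as deposited, and limma-voom called 3281 in the 48 h interaction. Between genotypes at 48 h, where 971 were called, there were 484 with a pseudocount of 0.1, 1571 with 5, 136 with the compared groups only, and 246 to 2845 with a library left out (377 without WT 48 h replicate 2). The cause was not tested.

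The replicate numbers did not track the libraries across groups: of 45 same-number pairs, 6 had deviations from the group means correlated above 0.1, and for 0 of 18 libraries was the closest number its own. Such a check cannot show that samples of the same culture are unpaired. The main fit treats all 18 libraries as independent. With the replicate block no number of calls moved by over 1.5 times. The 3 replicates per group limit precision, and the depth was 59603478 reads or more in every library.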
